A study of Mus musculus with 36 samples.

Results

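RNA-seq of mouse macrophages was read for Xpo1 and 9 other genes of nuclear transport, which are 10 of the 54532 genes in the deposited count table. Xpo1 was chosen by its log2 difference with CCM, being higher with the Core Circadian Modulator (CCM), a small molecule that binds BMAL1, and its values with CCM are therefore given as a description with no test. The other 9 genes (Xpo4, Xpo5, Xpo6, Xpo7, Xpot, Cse1l, Kpnb1, Ran and Ranbp1) form the comparison family. All 10 passed the filter on low counts in each of the 12 comparisons.

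Bone marrow-derived macrophages (BMDMs) were grown for 7 days with MCSF from C57BL/6 females aged 13 to 17 weeks. KO macrophages carried LysM-Cre with both floxed alleles of Bmal1, so the deletion depends on a myeloid promoter, and WT macrophages came from Bmal1 flox/flox littermates without Cre. Cells of each genotype were kept for 6 h with DMSO vehicle, 100 µM CCM, 100 nM LPS (a bacterial cell wall component that activates macrophages) or LPS with CCM. There were 3 WT and 6 KO replicates of each treatment, 36 libraries in all.

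Large molecules cross the nuclear pore bound to transport receptors of the importin beta family, and the direction of each trip is set by the small GTPase Ran. Exportins bind their cargo together with Ran loaded with GTP in the nucleus and release it in the cytoplasm once the GTP is hydrolyzed, whereas importins release their cargo when they meet Ran with GTP. In macrophages this traffic carries inflammatory transcription factors and their inhibitors, and XPO1, also called CRM1, is the receptor for proteins that hold a leucine-rich nuclear export signal.

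Library totals ran from 13469262 to 28288923 counts, with a median of 19951421. In all 72 pairs of libraries from 1 group, counts differed by more than sampling noise (smallest chi-square over its degrees of freedom, 4.34), and precision is therefore set by the replicates rather than by depth. Nothing in the labels says that the replicates are separate mice, and p-values measure the spread between these libraries. The Bmal1 gene itself, listed as Arntl, was at 7.28 to 12.9 CPM (counts scaled to the library total, with TMM factors) in WT libraries and at 2.13 to 10.7 in KO libraries, so the genotypes overlapped. These counts are of the whole gene and do not separate the floxed part, so they do not check the deletion. All 6 macrophage markers were above 1 CPM in every library, as were all 3 fibroblast markers and 4 of 5 neutrophil markers. The summed fibroblast markers ranged from 293 to 1640 CPM outside KO replicate 6. The B cell, T cell, erythroid and dendritic lists had no marker above 1 CPM in all libraries. The 4 libraries of KO replicate 6 stood apart: relative to the other libraries of each group, the third of genes with the shortest exons was higher by a median of 0.53 to 0.62 on the log2 scale and the third with the longest was lower, by -0.49 to -0.83. The summed neutrophil markers in these 4 libraries were 869 to 923 CPM, against 250 to 707 in the other 32. KO results of Xpo1 and the comparison family are therefore given with and without KO replicate 6, and what sets it apart was not tested.

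Xpo1 (ENSMUSG00000020290) lies on the plus strand at chr11:23256041-23298249 of GRCm38, which is mm10, the build named in the submitters' processing notes. Its exons span 7181 bases and share none with another annotated gene. The RefSeq promoter table (GRCm38.p6) held the 250 bases before the RefSeq start of 7 of the 10 genes. For Ran, Xpo5 and Ranbp1 these bases run past the gene start of the deposited annotation. BMAL1 with its partner CLOCK binds the E-box, CACGTG, and the upstream bases were searched for it and for the CCAAT box, CCAAT, on both strands. The E-box letters were present upstream of Ran and Xpot and not of the other 5, and 6.02% of 32841 promoters of the same length held them. Xpo1 had 2 matches to CCAAT, a word held by 33.9% of promoters, and Kpnb1 had 3, Xpo6 1 and Ranbp1 1. The GC content of the 7 stretches, each over all 250 bases, ran from 58% for Xpo6 to 81.6% for Ran, with Xpot at 71.6%. The median of all promoters was 52.4%, and the shares over all promoters are not matched for GC. The 3 stretches below are those of Xpo1, which has no E-box in the bases searched, and of Ran and Xpot, which have one there. Bases elsewhere in or near these genes were not searched. Capitals mark the E-box or CCAAT. Each runs 5′ to 3′ in the direction of its gene, at chr11:23255791-23256040 on the plus strand for Xpo1, chr5:129019906-129020068 on the plus strand for Ran, cut where an annotated exon begins, and chr10:121626333-121626582 on the minus strand for Xpot.
Xpo1: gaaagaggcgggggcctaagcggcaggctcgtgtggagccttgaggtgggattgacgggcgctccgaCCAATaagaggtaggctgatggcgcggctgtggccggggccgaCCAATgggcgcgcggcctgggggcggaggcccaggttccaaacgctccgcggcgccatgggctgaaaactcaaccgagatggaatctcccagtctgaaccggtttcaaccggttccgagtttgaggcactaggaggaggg
Ran: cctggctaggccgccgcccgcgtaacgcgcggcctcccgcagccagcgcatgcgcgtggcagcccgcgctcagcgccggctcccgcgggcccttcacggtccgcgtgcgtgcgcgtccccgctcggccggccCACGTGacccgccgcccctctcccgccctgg
Xpot: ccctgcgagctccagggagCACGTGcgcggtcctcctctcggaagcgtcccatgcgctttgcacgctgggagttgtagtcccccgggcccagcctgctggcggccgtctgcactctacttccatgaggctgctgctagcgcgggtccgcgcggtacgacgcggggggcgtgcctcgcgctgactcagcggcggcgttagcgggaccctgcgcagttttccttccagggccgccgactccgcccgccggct
The heat shock element GAANNTTC was not found upstream of any of the 7 genes and was in 6.7% of promoters. The antioxidant response element TGACNNNGC had 1 match, upstream of Xpot, and was in 10.2%. These are matches of letters and show no binding.

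The 10 genes covered a wide range of levels in untreated WT macrophages. Compared per length of exon, the level in WT vehicle libraries was highest for Ran, at 76.0 ± 4.10 CPM per kilobase (SD, n = 3). Kpnb1, which encodes importin beta 1, the main import receptor, followed at 30.5 ± 2.04, and Ranbp1, a cofactor of Ran's GTP hydrolysis, at 21.5 ± 0.729. Xpot, the exporter of transfer RNA, was at 15.5 ± 0.915 CPM per kilobase. Xpo1 came next at 12.4 ± 0.934, and its libraries overlapped those of Cse1l, the exportin that returns importin alpha to the cytoplasm, at 11.3 ± 0.895. All other neighbours in the order had libraries that did not overlap. The remaining exportins were lower: Xpo5, the exporter of microRNA precursors, at 5.68 ± 0.224, Xpo6, the exporter of actin with profilin, at 4.91 ± 0.134, Xpo7, a broad exporter of proteins, at 2.70 ± 0.165, and Xpo4, an exporter of eIF5A, at 2.13 ± 0.0801.

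**Figure D1:**
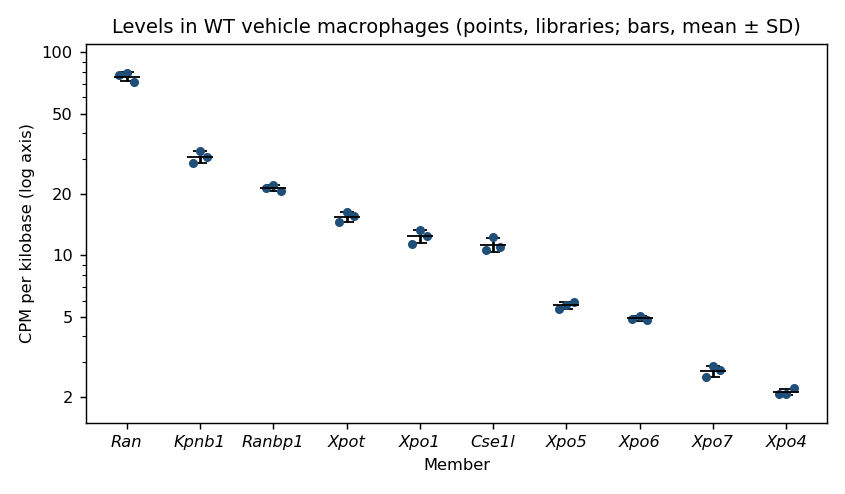
CPM per kilobase of exon in the 3 WT vehicle libraries for the 10 genes, in falling order of the mean, on a log axis; points are libraries and bars the mean ± SD. Ran, at 76.0, lies at the top, Xpo1, at 12.4, in the middle beside Cse1l, and Xpo4, at 2.13, at the bottom.

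Xpo1 transcripts were more abundant in every CCM-treated WT library than in every WT library without CCM under the same stimulation. WT vehicle libraries held 82.0, 95.3 and 90.1 CPM of Xpo1, and WT CCM libraries 135, 130 and 135. The 2 groups did not overlap, and the difference was 0.56 ± 0.0677 on the log2 scale (SE), a 1.48-fold higher level. WT LPS libraries held 102, 103 and 104 CPM and WT LPS+CCM libraries 202, 196 and 190. Each LPS+CCM library was therefore above each of the other 9 WT libraries. The difference under LPS was 0.92 ± 0.045 on the log2 scale, 1.9-fold. In bulk RNA, more transcript per cell and more cells of a kind that holds the transcript cannot be told apart.

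KO macrophages showed the same direction. KO vehicle libraries ranged from 46.2 to 89.1 CPM of Xpo1 with a median of 87.6, and KO CCM libraries from 77.5 to 134 with a median of 124. KO LPS libraries ranged from 57.9 to 115 with a median of 102, and KO LPS+CCM libraries from 108 to 214 with a median of 176. The lowest value of all 4 groups was KO replicate 6, and it alone made the groups with and without CCM overlap. The CCM difference in KO was 0.54 ± 0.171 unstimulated (log2, 1.45-fold) and 0.78 ± 0.187 under LPS (1.72-fold). It was 0.51 and 0.78 without KO replicate 6, and 0.83 under LPS with KO LPS+CCM replicate 5 left out too. Replicate numbers were taken to pair the libraries in unstimulated KO, where the difference was above 0 in 6 of 6 pairs, from 0.39 to 0.74, and in WT under LPS, where it was above 0 in 3 of 3, from 0.87 to 0.98. The pairing is uncertain in KO, where libraries with different numbers also correlated. The summed neutrophil markers were at lower medians with CCM in 3 of these 4 comparisons. The sum was 392 to 425 CPM in WT vehicle (median 399) and 257 to 401 in WT CCM libraries (median 257), and 350 to 385 in WT LPS (median 370) and 290 to 352 in WT LPS+CCM libraries (median 292). In KO the medians were 538 with vehicle and 393 with CCM, and 444 with LPS and 452 with LPS+CCM. All 4 pairs of groups overlapped, and the part of these markers in the Xpo1 values was not tested.

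**Figure D2:**
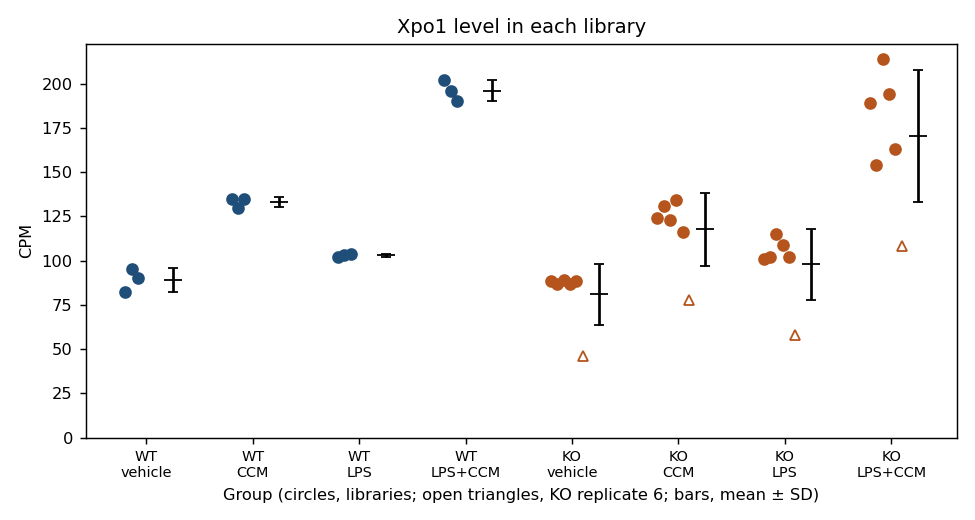
Xpo1 CPM (TMM-scaled, vertical axis) in each of the 36 libraries by group; circles are libraries, open triangles KO replicate 6, and bars the mean ± SD of all libraries of the group. The WT LPS+CCM libraries, at 190 to 202, lie above the other WT libraries, and KO replicate 6 is the lowest of each KO group, from 46.2 to 108.

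Among genes with an average log2 CPM of at least 1, few had a larger CCM difference upward than Xpo1. There were 37 such genes of 11603 in unstimulated WT, 45 of 11607 in unstimulated KO, 16 of 11048 in WT under LPS and 34 of 10999 in KO under LPS. The WT and KO comparisons use different libraries, whereas the unstimulated and LPS comparisons of 1 genotype differ in their controls as well as in their CCM groups. The CCM difference of Xpo1 was larger under LPS than without it by 0.35 ± 0.0784 in WT and by 0.26 ± 0.254 in KO (log2). Leaving out KO replicate 6 gave 0.27 in KO. The difference between genotypes in the CCM response under LPS, KO minus WT, was -0.13 ± 0.272, smaller than its SE. It was again -0.13 without KO replicate 6. These values and the ranks above follow from the measure that chose Xpo1 and have no test.

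LPS and genotype were not used to choose Xpo1, and they were tested. LPS raised Xpo1 in WT macrophages from a mean of 89.1 ± 6.71 to 103 ± 0.86 CPM (SD, n = 3 each), a log2 fold change of 0.22 ± 0.0666 (adjusted p = 0.0158, edgeR's quasi-likelihood test with Benjamini-Hochberg adjustment). Each WT LPS library was above each vehicle library. That call depends on the scaling of the libraries: with total counts alone, which lower the median gene in this comparison by a further -0.41, the value was -0.19 (adjusted p = 0.0348). It was 0.18 with every gene of at least 1 count (adjusted p = 0.055) and 0.21 with all 36 libraries in 1 fit (adjusted p = 0.522), so the call was also lost with each of these. In KO the log2 fold change was 0.26 ± 0.179 and did not pass (adjusted p = 0.266). Blocking on the replicate number gave 0.26 (adjusted p = 0.000263) and leaving out KO replicate 6 gave 0.25 (adjusted p = 0.000413), with the 5 LPS libraries all above the 5 vehicle libraries.

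KO against WT, Xpo1 differed by -0.13 ± 0.19 with vehicle and by -0.08 ± 0.186 with LPS (log2), and neither passed the test (adjusted p = 1 and 0.986). Without KO replicate 6 the values were -0.02 and 0.03. The LPS response of Xpo1 in KO minus that in WT was 0.06 ± 0.272 (adjusted p = 1), and 0.04 without KO replicate 6. A genotype difference of Xpo1 was thus not detectable with this spread between replicates.

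Without LPS, no gene of the comparison family passed the test for CCM in either genotype, and with these errors small changes could not be detected. In WT macrophages 0 of 9 were called by edgeR, where 8 of all genes tested, 0.0570%, were called. DESeq2 also called 0 of the 9, and 2 had an unadjusted p under 0.05. These were Ranbp1, at 36, 37 and 34.6 CPM with vehicle and 26.8, 30.7 and 31.9 with CCM, and Ran. For Ranbp1 the CCM libraries were all lower, by -0.28 ± 0.0795 on the log2 scale, with an adjusted p of 0.268. Xpo7 was higher in all CCM libraries by 0.13 ± 0.0652 (adjusted p = 0.537). The other 7 genes overlapped between groups, with values from -0.16 for Ran to 0.05 for Xpot. How many of all genes had groups that did not overlap was not counted.

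In unstimulated KO macrophages edgeR again called 0 of the 9 genes for CCM, and 0% of all genes tested. DESeq2 called 0 of the 9, and 0 had an unadjusted p under 0.05. Their log2 differences ran from -0.12 for Ran to 0.06 for Xpo4, with SEs of 0.104 to 0.408, and every group pair overlapped. Leaving out KO replicate 6 gave values from -0.18 for Ranbp1 to 0.05, and 0 calls among the 9, where 141 of all genes were called. With the replicate block 429 of all genes were called, and 729 with the block and without KO replicate 6, each time with 0 of the 9.

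Under LPS in WT macrophages, CCM raised Xpo7 and Xpot and lowered Ran and Ranbp1, 4 of the 9 family genes, where 11.9% of all genes tested were called, 4.15% upward and 7.78% downward. Xpo7 was at 36.7, 35 and 36 CPM with LPS and 42.3, 42.5 and 41.8 with LPS+CCM, a log2 fold change of 0.23 ± 0.0548 (adjusted p = 0.0200). Xpot was at 83.2, 80.2 and 80.6 CPM with LPS and 93.8, 93.9 and 89.4 with LPS+CCM, 0.19 ± 0.0493 (adjusted p = 0.0359). For both exportins the 3 libraries with CCM were the higher ones. Ran was at 380, 370 and 353 CPM with LPS and 311, 304 and 319 with LPS+CCM, -0.24 ± 0.0454 (adjusted p = 0.00774). Ranbp1 was at 49.2, 52.4 and 53.2 CPM with LPS and 43.8, 44.7 and 46.3 with LPS+CCM, -0.20 ± 0.0566 (adjusted p = 0.0464). Here the libraries with CCM were the lower ones. Ran and Ranbp1 have the shortest exons of the members, 2646 and 1666 bases, against 19005 for Xpo7 and 6033 for Xpot. Whether counts shifted with exon length was examined in KO libraries alone, and the part of exon length in these WT values was not tested.

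The 5 other family genes did not pass the test in that comparison. Cse1l, at 0.13 ± 0.0582, and Xpo5, at 0.17 ± 0.065, were higher in all CCM libraries, and Xpo6, at -0.15 ± 0.0542, was lower in all. Kpnb1, at 0.13 ± 0.0534, and Xpo4, at 0.09 ± 0.0692, overlapped. The share of all genes with groups as separate was not counted. The median of the 9 was 0.13, against 0.01 for all genes tested, and Xpo1 stood at 0.92 in the same fit. With the replicate number as a block 7 of the 9 were called, Xpo5 (adjusted p = 0.0361), Xpo6 (0.0163) and Kpnb1 (0.0152) being added, and the block raised the calls over all genes from 1621 to 3220. DESeq2 called Ran alone, the fit of all 36 libraries called 0, and Ranbp1 was not called with every gene of at least 1 count (adjusted p = 0.0792). Leaving out WT LPS replicate 2 or 3, or WT LPS+CCM replicate 1 or 2, ended the calls of Xpo7, Xpot and Ranbp1 and left that of Ran, so that 1 of 9 was called. Leaving out WT LPS+CCM replicate 3 ended that of Ranbp1 alone (adjusted p = 0.0677). With total counts alone Xpo7, Xpot and Ran kept their direction and their call, Ranbp1 was at -0.12 (adjusted p = 0.184), Xpo5, Cse1l and Kpnb1 were called upward, and 67.7% of all calls were upward in place of 34.8%.

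**Figure D3:**
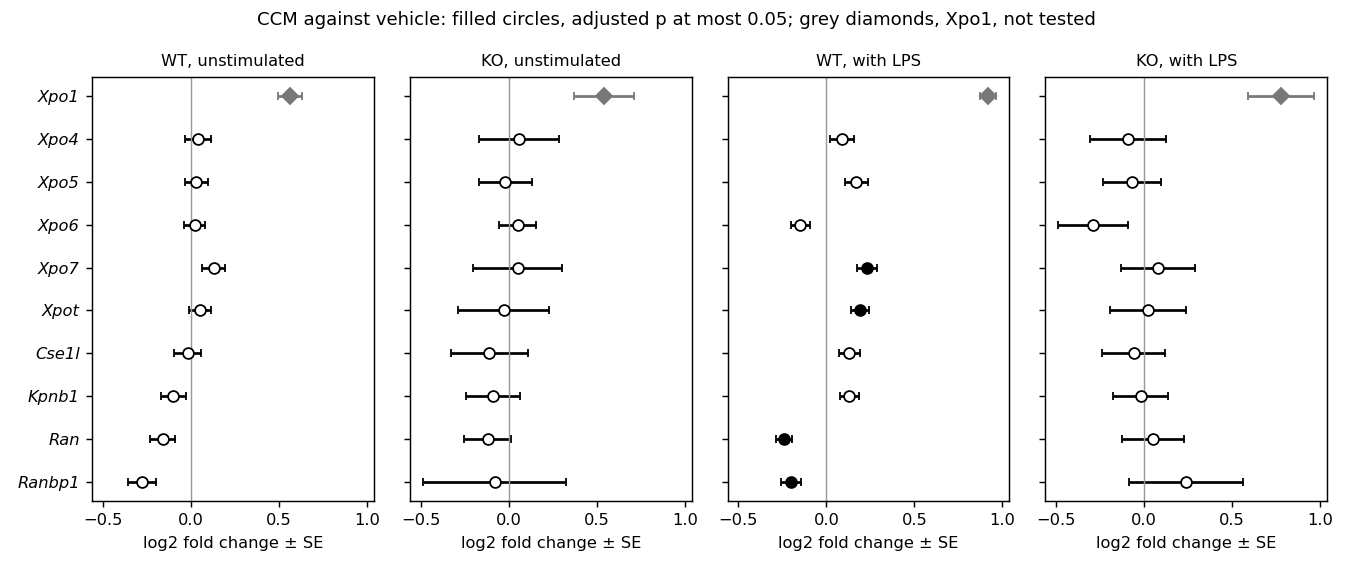
log2 fold change of CCM against vehicle ± SE (horizontal axis) for the 10 genes in WT and KO macrophages without and with LPS. Filled circles passed an adjusted p of 0.05, open circles did not, and grey diamonds mark Xpo1, which was not tested; Xpo1 lies between 0.54 and 0.92 and the other 9 between -0.29 and 0.24.

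Under LPS in KO macrophages edgeR called 0 of the 9 genes for CCM, where 0.112% of all genes were called. DESeq2 called 0 of the 9 too, and 0 had an unadjusted p under 0.05. Values ran from -0.29 ± 0.198 for Xpo6 to 0.24 ± 0.324 for Ranbp1. Ran and Ranbp1, which CCM lowered in WT, were at 0.05 ± 0.176 and 0.24 ± 0.324, and Xpo7 and Xpot at 0.08 ± 0.21 and 0.02 ± 0.215. In 1 library, KO LPS+CCM replicate 5, Ran was at 602 and Ranbp1 at 103 CPM, whereas the 4 libraries numbered 1 to 4 held 308 to 407 and 46.2 to 65.4. With KO replicate 6 alone left out the values were 0.12 for Ran, 0.26 for Ranbp1, 0.1 for Xpo7 and 0 for Xpot, with 0 calls among the 9. Without KO LPS+CCM replicate 5 and KO replicate 6 they were -0.08 for Ran, 0.00 for Ranbp1, 0.18 for Xpo7 and 0.06 for Xpot, again with 0 calls.

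The difference between genotypes in these CCM responses was tested directly. Genotype by CCM under LPS gave 0 calls among the 9, from -0.22 ± 0.239 for Xpo5 to 0.46 ± 0.49 for Ranbp1 (each adjusted p = 1), and 0% of all genes were called. DESeq2 called 0 genes, and of the 9 none had an unadjusted p under 0.05. Leaving out KO replicate 6 gave values from -0.25 for Xpo5 to 0.47 for Ranbp1. With KO LPS+CCM replicate 5 left out too, the values ran from -0.17 for Cse1l to 0.20 for Ranbp1. The interaction of LPS with CCM also called 0 of the 9, in WT (2.09% of all genes called) and in KO (0.00685%), by edgeR and by DESeq2. In WT 2 of the 9 had an unadjusted p under 0.05, Kpnb1 at 0.21 ± 0.0883 and Xpo6 at -0.18 ± 0.0791 (adjusted p = 0.292 and 0.321), and in KO 0. The KO interaction values without KO replicate 6 ran from -0.35 for Xpo6 to 0.43 for Ranbp1. Without KO LPS+CCM replicate 5 as well they ran from -0.20 for Xpo6 to 0.16 for Ranbp1.

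LPS alone moved most of the family in WT macrophages: 8 of 9 genes were called, 5 upward and 3 downward, where 63.0% of all genes tested were called, 30.6% upward and 32.4% downward. The share among members is thus to be read against a response of most expressed genes. Cycling markers were also lower with LPS, at 212 to 256 CPM summed over 6 genes against 322 to 469 with vehicle in WT, and at 189 to 244 against 314 to 381 in KO, and their part in these results was not tested.

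The 2 genes of the Ran system rose with LPS. Ran was at 206, 209 and 189 CPM with vehicle and 380, 370 and 353 with LPS, a log2 fold change of 0.88 ± 0.0588 (adjusted p = 5.63e-07). Ranbp1 was at 36, 37 and 34.6 CPM with vehicle and 49.2, 52.4 and 53.2 with LPS, 0.53 ± 0.0627 (adjusted p = 3.91e-05). In both the LPS libraries lay wholly above the vehicle libraries. Because Ran has a near-identical copy without introns, annotated as Rasl2-9, and because 20.1% of the exon bases of Ranbp1 are shared with the exons of Trmt2a on the other strand and of 1 further annotated gene, the counts of both are uncertain to the extent that reads could be assigned either way.

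The import receptor Kpnb1 rose from 188, 215 and 200 to 235, 254 and 238 CPM, 0.28 ± 0.065 (adjusted p = 0.00399). Among the exportins Xpo6 rose from 82.7, 85.5 and 81.0 to 128, 122 and 124 CPM, 0.59 ± 0.0541 (adjusted p = 6e-06), and Xpo4 rose from 22.5, 22.3 and 23.9 to 28.2, 26.2 and 26.9 CPM, 0.25 ± 0.0712 (adjusted p = 0.0117). Xpo7 fell from 48.1, 54.4 and 51.6 to 36.7, 35 and 36 CPM, -0.51 ± 0.0678 (adjusted p = 9.15e-05). For these 4 genes the groups did not overlap, a description given without the share of all genes with separate groups, which was not counted. Cse1l fell from 55.9, 65.0 and 58.1 to 50.2, 49.0 and 51.4 CPM, -0.24 ± 0.0706 (adjusted p = 0.0127), and Xpot fell from 87.9, 98.9 and 94.5 to 83.2, 80.2 and 80.6 CPM, -0.20 ± 0.0625 (adjusted p = 0.0178). The groups were again separate, though by a smaller margin. Xpo5, at 37.3, 39.3 and 40.3 with vehicle and 40.4, 38.9 and 36.6 with LPS, differed by -0.01 ± 0.0679 (adjusted p = 0.923) and its groups overlapped.

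The smaller of these LPS values depend on scaling. Total counts alone shifted the median of all genes by -0.41. Xpo5 then stood at -0.42 and was called (adjusted p = 0.000423), Kpnb1 stood at -0.14 (adjusted p = 0.107), Xpo4 at -0.16 (adjusted p = 0.0684) and Ranbp1 at 0.12 (adjusted p = 0.12), and upward calls made up 24% of all calls in place of 48.6%. Ran and Xpo6 kept their direction and call under that scaling, and these 2 were the calls left in the fit of all 36 libraries. Xpo4 was not called with every gene of at least 1 count (adjusted p = 0.0845), nor Xpot by DESeq2 (adjusted p = 0.0525). Without WT vehicle replicate 2 Xpot and Cse1l were not called (adjusted p = 0.0977 and 0.0737), nor without WT LPS replicate 2 (0.0733 and 0.0595), and Xpot was not called without WT LPS replicate 3 (0.059).

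In KO macrophages LPS raised Ran and Xpo6, 2 of the 9, where 47.1% of all genes were called, 22.4% upward and 24.7% downward. Ran ranged from 173 to 255 CPM with vehicle (median 188) and from 335 to 495 with LPS (median 368), 0.91 ± 0.135 on the log2 scale (adjusted p = 8.48e-05). The groups did not overlap, and Ran was higher with LPS in 6 of 6 pairs of equal replicate number, a pairing that is uncertain in KO. Xpo6 ranged from 61.8 to 84.7 CPM with vehicle (median 80.3) and from 77.5 to 126 with LPS (median 122), 0.55 ± 0.118 (adjusted p = 0.00158), higher in 6 of 6 pairs. The overlap of its groups rested on KO replicate 6. Xpo6 was at 0.17 with total counts alone (adjusted p = 0.415).

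The 7 uncalled genes carried wide errors in KO. Xpo7 was at -0.55 ± 0.218 (adjusted p = 0.0527), Kpnb1 at 0.35 ± 0.144 (0.0606) and Ranbp1 at 0.52 ± 0.341 (0.244). Xpot was at -0.27 ± 0.225, Xpo4 at 0.23 ± 0.245, Cse1l at -0.11 ± 0.17 and Xpo5 at -0.05 ± 0.126. Calls over all genes rose from 6433 to 9774 with the replicate block and to 9612 without KO replicate 6. With the block 7 of the 9 were called, namely Ran and Xpo6 with Xpo4, Kpnb1 and Ranbp1 upward and Xpo7 and Xpot downward. Without KO replicate 6 there were 8, the same 7 and Cse1l at -0.12 (adjusted p = 0.0338), with Xpo7 at -0.58 (2.58e-06), Kpnb1 at 0.37 (4.77e-05), Ranbp1 at 0.61 (7.51e-05), Xpot at -0.26 (0.000865) and Xpo4 at 0.20 (0.0347). Each of these 8 had the direction it had in WT.

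**Figure D4:**
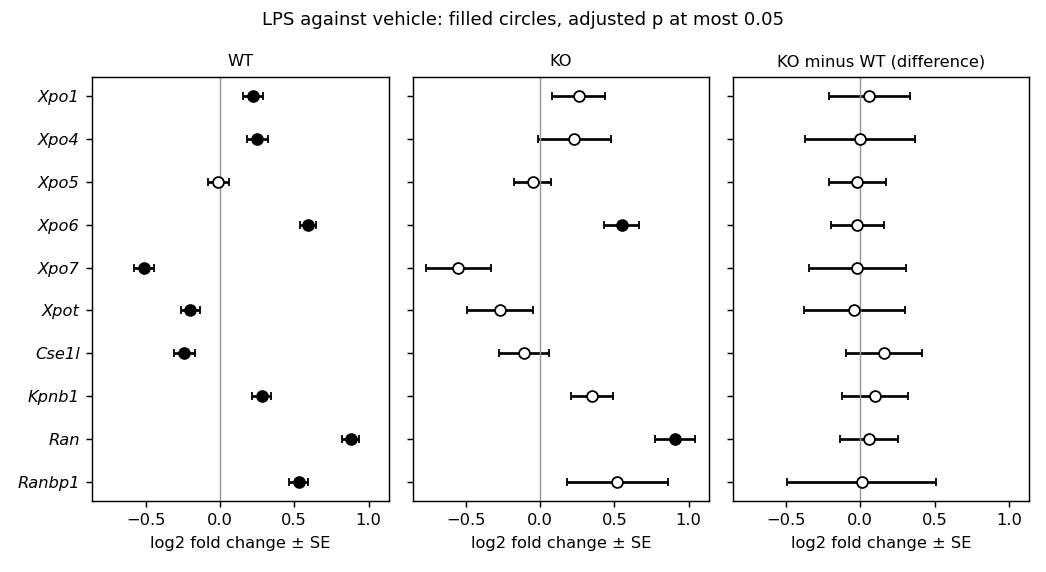
log2 fold change of LPS against vehicle ± SE (horizontal axis) for the 10 genes in WT, in KO and as the difference KO minus WT; filled circles passed an adjusted p of 0.05. Ran lies at 0.88 and 0.91 in the 2 genotypes and Xpo7 at -0.51 and -0.55, and no difference between genotypes passed.

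Neither genotype nor its interaction with LPS gave a call. With vehicle, KO against WT called 0 of the 9 (0% of all genes), from -0.17 ± 0.186 for Cse1l to 0.31 ± 0.388 for Ranbp1. With LPS it called 0 of the 9 (0% of all genes), from -0.12 ± 0.22 for Xpo4 to 0.28 ± 0.28 for Ranbp1. The genotype by LPS term called 0 of the 9 (0% of all genes), from -0.04 ± 0.341 for Xpot to 0.16 ± 0.259 for Cse1l. In all 3, edgeR gave an unadjusted p under 0.05 for 0 of the 9 and DESeq2 called 0 of the 9. Without KO replicate 6 the vehicle values were -0.09 for Ranbp1 and -0.07 for Cse1l, and those with LPS 0.00 for Ranbp1 and 0.01 for Xpo4. The genotype by LPS values then ran from -0.06 for Xpo7 to 0.13 for Cse1l. As the Arntl counts of the genotypes overlapped, these values compare the libraries as labelled.

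Beyond the 10 genes, 67 other genes of nuclear transport were followed in 6 lists: importin alpha, further receptors of the importin beta family, the Ran cycle, adaptors that bind XPO1, mRNA export and nucleoporins. CCM called 0 of the 63 tested in unstimulated WT, in unstimulated KO and in KO under LPS by edgeR, and 0 by DESeq2, where 3, 1 and 1 had an unadjusted p under 0.05. In WT under LPS edgeR called 4 of 63, 6.35%, a smaller share than the 11.9% of all genes, and DESeq2 called 5 of the listed genes. Of these Kpna3, an importin alpha, fell by 0.60 ± 0.0627 on the log2 scale, from 340 ± 21.8 to 224 ± 15.1 CPM (SD, n = 3, adjusted p = 0.000204). Ranbp2, the nucleoporin on the cytoplasmic face that binds Ran, fell by 0.32 ± 0.06 (adjusted p = 0.00638), and Ddx39b, an mRNA export helicase, fell by 0.15 ± 0.0419 (adjusted p = 0.0448). Tnpo2, a transportin, rose by 0.20 ± 0.0503 (adjusted p = 0.0262). In KO under LPS the lowest values, without a call, were -0.48 among importin alpha genes and -0.53 in the Ran cycle. Genotype by CCM under LPS called 0 of the 63, so no difference between genotypes was detected in these lists. Kpna3 was also the 1 gene of the lists with a call by edgeR for LPS by CCM in WT, at -0.68 ± 0.097 (adjusted p = 0.00332), where DESeq2 called 4. None of the 3 adaptors that bind XPO1, Nmd3, Phax and Snupn, was called with CCM, and their values in WT under LPS ran from -0.16 to 0.06.

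LPS in WT called 41 of 64 listed genes, 21 upward and 20 downward, 64.1% against the 63.0% of all genes. Importin alpha genes were mostly upward, 3 of 5 tested, led by Kpna3, which rose by 2.32 ± 0.0767 from 68.6 ± 5.27 to 340 ± 21.8 CPM, and Kpna4, which rose by 1.24 ± 0.109, while Kpna2 fell by 0.25 ± 0.0803. Of the 12 further importin beta family genes 2 rose and 6 fell, with Ipo13 at 0.80 ± 0.0788 and Ranbp6 at -0.54 ± 0.135. In the Ran cycle Ranbp2 rose by 0.85 ± 0.0679 and Ranbp3 by 0.16 ± 0.0612, whereas Rangap1, the activator of Ran's GTP hydrolysis, fell by 0.30 ± 0.0816 and Rcc1, the nuclear exchange factor that loads Ran with GTP, fell by 0.27 ± 0.0838. Of the adaptors that bind XPO1, Nmd3, for export of the large ribosomal subunit, and Snupn, for snRNP import, rose by 0.57 ± 0.0681 and 0.49 ± 0.161. Of 11 mRNA export genes 3 rose and 1 fell, and of 28 nucleoporins 9 rose and 10 fell, from Nup98 at 0.95 ± 0.0739 to Nup210 at -1.22 ± 0.187. In KO 20 of 63 were called with LPS, 31.7% against 47.1% of all genes, 12 upward and 8 downward. Kpna3 was at 2.13 ± 0.2 and Nup210 at -1.44 ± 0.156. The lists were not counted without KO replicate 6 in any KO comparison. Leaving it out raised the LPS calls in KO over all genes from 6433 to 9612, so the lower share in KO does not show a weaker response.

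The genes whose log2 CPM was most like that of Xpo1 over all 36 libraries, among 11177 with an average log2 CPM of at least 1, were Hsph1, an HSP110 chaperone (Pearson r = 0.91), Mturn (0.86), Kif2a, a kinesin (0.84), Gclm, a subunit of the enzyme for glutathione synthesis (0.84), and Tcp11l1 (0.79). These values describe libraries that share treatment and depth, and have no test. In WT libraries Hsph1 was at 48.0 ± 5.08 CPM untreated, 58.6 ± 3.31 after CCM, 58.7 ± 4.58 after LPS and 82.6 ± 4.59 after both (SD, n = 3 each). Mturn was at 6.59 ± 0.651, 11.4 ± 0.599, 7.68 ± 0.784 and 13.9 ± 2.93 CPM in the same order. Both were highest with LPS+CCM, as Xpo1 was, which follows from their choice by likeness to Xpo1 in these libraries. Within the 12 WT libraries the 5 genes most like Xpo1 were Pde4dip (0.94), Atg5 (0.92), Mturn (0.92), Hsph1 (0.92) and Rdh13 (0.91). Without KO replicate 6, over 32 libraries, Hsph1 (0.90) and Mturn (0.86) stayed in the first 5 and Odc1, Dhdds and Pde4dip entered. Within the family the correlation with Xpo1 ran from 0.65 for Xpo4 to -0.22 for Ranbp1 over all libraries, and without KO replicate 6 from 0.45 for Kpnb1 to -0.21 for Xpo7.

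The members divided by length in KO replicate 6. In its 4 libraries the 8 genes with exons of at least 5273 bases were below the mean of the other 5 libraries of the group. Ran, with 2646 bases, was above it by 0.28 to 0.46 on the log2 scale and Ranbp1, with 1666 bases, by 1.18 to 1.70. Xpo1 was at -0.69 to -0.93. KO LPS+CCM replicate 5 showed the same sides for all of these genes except Cse1l, which was at 0.04. Ran was at 0.84, Ranbp1 at 1.01, Xpo6 at -0.99, Xpo1 at -0.19 and Kpnb1 at -0.06. Replicates 1 to 5 were each set against the rest of these 5, so KO LPS+CCM replicate 5 is part of the reference of its group. WT libraries were not examined in this way. Over 11178 genes the rank correlation of the deviation with exon length was -0.50 to -0.56 in KO replicate 6 and -0.55 in KO LPS+CCM replicate 5, and from -0.47 to 0.51 in the other 19 KO libraries, as a description across genes that are not independent.

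**Figure D5:**
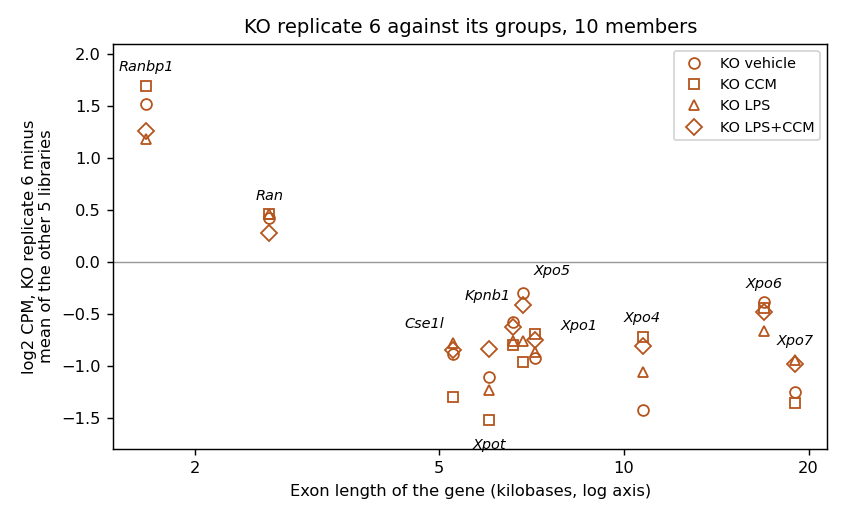
Deviation of KO replicate 6 from the mean of the other 5 libraries of its group (log2 CPM, vertical axis) against exon length in kilobases (log axis) for the 10 genes, 1 symbol per KO group. Ran and Ranbp1, the 2 shortest genes, lie above 0 and the 8 longer genes below it.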

How the data were processed

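RNA-seq was measured in BMDMs of WT (3 replicates) and KO (6 replicates) mice with 4 treatments, 36 libraries. The authors selected poly(A) RNA with poly(T) beads, sequenced both ends, and used fastp for trimming, HISAT2 2.0.5 for alignment and featureCounts 1.5.0-p3 for counting per gene (build mm10, per the submitters' processing notes). The deposited values are raw counts, and 0 count columns were left out. A deposited column of exon length was used for CPM per kilobase. Whether counting used strand, and how reads matching several places were treated, are not given in the sources used here.

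The tests used edgeR 4.0.16 under R 4.3.3, on the groups of each comparison: filterByExpr, TMM scaling, estimateDisp, glmQLFit and glmQLFTest, without a block, two-sided, with Benjamini-Hochberg adjustment over all genes tested and a threshold of 0.05. Called means past that threshold. Statements that groups do or do not overlap are descriptions, and the share of all genes with separate groups was not counted. The SE is the log2 fold change divided by the root of the F statistic. CPM use TMM factors and log2 CPM a prior count of 2. The procedure was tested on simulated data. Total counts per library were 13469262 to 28288923.

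The members, the lists, the rule for naming genes and the tests were chosen with earlier results of these data known. The rule names all 10 members, per list and comparison up to 3 called genes in each direction, and the 5 genes most like Xpo1. Alternatives were DESeq2 1.42.0, RLE size factors, every gene with at least 1 count, the replicate number as a block, all 36 libraries in 1 fit and leaving out each WT library or KO replicate. Total counts alone, leaving out KO replicate 6 with KO LPS+CCM replicate 5, and the block without KO replicate 6 were added after seeing the data.

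Whether equal replicate numbers pair the libraries was checked, since no label says so, by correlating over genes how far each library lay from its group mean. Each pair was over 0.1 for CCM in unstimulated KO (0.435 to 0.923), CCM under LPS in WT (0.211 to 0.451), LPS in WT (0.114 to 0.224) and LPS in KO (0.346 to 0.906), which were taken as paired. Libraries with different numbers also correlated in KO, with medians of 0.357 and 0.285. For CCM in unstimulated WT (-0.0034 to 0.559) and CCM under LPS in KO (-0.186 to 0.887) they were not.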

Additional observations from a re-analysis of the deposited data

Results flagged for a closer look

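KO replicate 6 lay apart from the other 5 libraries in 31 of the 40 sets of 6 values (10 genes in 4 KO groups). In each such set its gap to the nearest library, as a share of the range of log2 CPM, exceeded Dixon's critical value for 6 values. Chance alone flags about 1 set in 20, and the sets are not independent, because the same 4 libraries recur in them. Of these sets 8 were in KO vehicle, 10 in KO CCM, 10 in KO LPS and 3 in KO LPS+CCM. Xpo1 was lowest in KO replicate 6 with a gap share of 0.957 in KO vehicle (46.2 CPM), 0.726 in KO CCM (77.5 CPM) and 0.803 in KO LPS (57.9 CPM). Xpo4 was lowest in KO replicate 6 with a gap share of 0.782 in KO vehicle (8.6 CPM), 0.653 in KO CCM (14.2 CPM) and 0.772 in KO LPS (13 CPM). Xpo5 was lowest in KO replicate 6 with a gap share of 0.855 in KO CCM (21.4 CPM) and 0.861 in KO LPS (23.9 CPM). Xpo6 was lowest in KO replicate 6 with a gap share of 0.747 in KO vehicle (61.8 CPM), 0.683 in KO CCM (61.9 CPM) and 0.922 in KO LPS (77.5 CPM). Xpo7 was lowest in KO replicate 6 with a gap share of 0.784 in KO vehicle (22.4 CPM), 0.847 in KO CCM (21.6 CPM) and 0.809 in KO LPS (18.7 CPM). Xpot was lowest in KO replicate 6 with a gap share of 0.776 in KO vehicle (46 CPM), 0.946 in KO CCM (34.7 CPM), 0.922 in KO LPS (35.8 CPM) and 0.637 in KO LPS+CCM (47 CPM). Cse1l was lowest in KO replicate 6 with a gap share of 0.896 in KO vehicle (30.5 CPM), 0.875 in KO CCM (21.8 CPM), 0.812 in KO LPS (30.6 CPM) and 0.687 in KO LPS+CCM (28.5 CPM). Kpnb1 was lowest in KO replicate 6 with a gap share of 0.678 in KO vehicle (126 CPM), 0.716 in KO CCM (103 CPM), 0.799 in KO LPS (146 CPM) and 0.672 in KO LPS+CCM (157 CPM). Ran was highest in KO replicate 6 with a gap share of 0.66 in KO CCM (239 CPM) and 0.714 in KO LPS (495 CPM). Ranbp1 was highest in KO replicate 6 with a gap share of 0.635 in KO vehicle (94.8 CPM), 0.845 in KO CCM (97 CPM) and 0.902 in KO LPS (117 CPM). The 8 longer genes were the low ones and Ran and Ranbp1 the high ones, and the part of exon length and of the higher neutrophil markers in this was not tested. No member that was tested passed a test for a difference between genotypes or an interaction.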

How the results depend on the processing

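The members had 107 to 12357 counts per library. The spread between the KO libraries was smaller without KO replicate 6 for Xpo1 in each group. Of the comparison family's single values over all comparisons and alternatives, 1419 kept direction and side of the threshold, 29 gained a call, 37 lost one and 2 called values reversed, while 88 values without a call changed sign. For Xpo1, 165 kept both, 3 gained and 2 lost a call, 2 moved with total counts alone (CCM under LPS in WT to 1, LPS by CCM in WT to 0.45), 1 reversed and 2 without a call changed sign. RLE size factors moved no count by over 1.5 times. Where no value below shows it, the cause was not tested.

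Reversals came with total counts alone, for LPS in WT: Xpo1 at -0.19, Xpo4 at -0.16 and Kpnb1 at -0.14. Of all genes, the main counts of calls were 8 for CCM in unstimulated WT, 0 in unstimulated KO, 1621 in WT under LPS and 15 in KO under LPS, 9139 for LPS in WT and 6433 in KO, 308 for LPS by CCM in WT and 1 in KO, and 0 for KO against WT and for both genotype interactions. DESeq2 gave 239, 20 and 184 for CCM in unstimulated WT, unstimulated KO and KO under LPS, 1 for KO against WT with vehicle and 1 with LPS, and 689 and 11 for LPS by CCM in WT and KO. With every gene of at least 1 count there were 377 for CCM in unstimulated WT, and 721 and 0 for LPS by CCM in WT and KO, and total counts alone gave 0 for the last. In the fit of all 36 libraries the counts were 0, 14, 17 and 285 for CCM in the order above, 5644 for LPS in WT, and 0 and 8 for LPS by CCM in WT and KO. That fit called 0 of the family for CCM under LPS in WT, 2 for LPS in WT and 4 for LPS in KO, where DESeq2 called 1 for the first.

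With the replicate block the counts were 255, 429, 3220 and 777 for CCM in the order above, 9774 for LPS in KO, and 548 and 81 for LPS by CCM in WT and KO. The block called 7 of the family for CCM under LPS in WT and 7 for LPS in KO, and it changed no other count of the family by over 1.5 times. The block without KO replicate 6 gave 729 and 304 for CCM in unstimulated KO and in KO under LPS, 10023 for LPS in KO with 8 of the family, and 53 for LPS by CCM in KO. Numbers did not pair the libraries for CCM in unstimulated WT, where 2 of 3 numbers had their own partner as the best match, or for CCM under LPS in KO, with 4 of 6. No paired analysis was possible for KO against WT, because the genotypes come from different mice. Without KO replicate 6 and KO LPS+CCM replicate 5, CCM under LPS in KO gave 330 and LPS by CCM in KO 13.

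Leaving out 1 WT library or 1 KO replicate gave 0 to 16 calls for CCM in unstimulated WT, 0 to 141 in unstimulated KO, 893 to 1352 in WT under LPS and 0 to 170 in KO under LPS. It gave 8357 to 9070 for LPS in WT, 5429 to 9612 for LPS in KO, 0 to 1 for KO against WT with LPS, 149 to 295 for LPS by CCM in WT and 0 to 10 in KO, with 0 for the other comparisons of genotype. The family's calls ranged from 1 to 4 for CCM under LPS in WT, from 6 to 8 for LPS in WT and from 2 to 8 for LPS in KO. The highest value for each KO comparison of treatments was that without KO replicate 6.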
